A study of Homo sapiens with 35 samples.

Results

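Definitive endoderm, the germ layer that gives rise to gut, liver and pancreas, was made with Activin A or with small molecules in its place from the human embryonic stem cell line H1, which is long established, and was sorted at 72 h before bulk RNA sequencing. The results concern 8 sorted libraries of 35 samples listed for the study, of which 30 bulk libraries have a column in the gene table. They fall into 4 groups of 2. The Activin A cells received Activin A (AA, 100 ng/ml) with the GSK3 inhibitor CHIR99021 (CHIR, 3 µM) on day 1 and Activin A alone on days 2 and 3. The other 3 groups received a compound labelled BRD, a compound labelled JNJ, or BRD together with an addition labelled LoAA on all 3 days, again with CHIR on day 1 only. The labels do not define LoAA, so whether that group received any Activin A is not known from them. The labels call all 8 libraries sorted definitive endoderm, and they share 1 library series. The labels give neither the sort markers nor the doses of the compounds, they do not say whether replicates came from separate inductions, and all cells are of 1 line, so p-values measure the spread between these libraries. A group given CHIR on day 1 with neither Activin A nor a compound was not analysed here at 72 h, so the effect of a compound and that of leaving Activin A out cannot be told apart.

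Activin A and its embryonic relative Nodal are ligands of the TGF-beta family that act through activin receptors and the transcription factors SMAD2 and SMAD3, which bind DNA with SMAD4 and partners such as FOXH1. A high level of this signal turns stem cells into mesendoderm and then endoderm, and it switches on its own ligand (NODAL) as well as secreted inhibitors (LEFTY1, LEFTY2, CER1) that limit its spread. CHIR mimics Wnt signalling, which helps to start the primitive streak programme.

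The promoters of 4 genes that respond to Nodal and that fell with the compounds are shown to give the sequence next to the start of these genes. Enhancers farther away, which are known to carry much of the Nodal response of such genes, are not shown. Each is the 250 bases before the annotated start in RefSeq on GRCh38.p14, 5′ to 3′ on the gene's strand. Capitals mark TGTNNATT, a FOXH1 type motif, and CAGAC, a SMAD type motif, on either strand, and no match of one motif overlapped a match of the other. CER1 lies at chr9:14722734-14722983 (minus strand), NODAL at chr10:70441682-70441931 (minus), MIXL1 at chr1:226223414-226223663 (plus) and GSC at chr14:94770114-94770363 (minus). The NODAL window lies inside the gene's span in GENCODE 29 (70432315 to 70447951), which starts farther upstream. The windows of GSC and MIXL1 lie partly inside their GENCODE 29 spans, which start at 94770230 and 226223618 on the gene's strand.
CER1: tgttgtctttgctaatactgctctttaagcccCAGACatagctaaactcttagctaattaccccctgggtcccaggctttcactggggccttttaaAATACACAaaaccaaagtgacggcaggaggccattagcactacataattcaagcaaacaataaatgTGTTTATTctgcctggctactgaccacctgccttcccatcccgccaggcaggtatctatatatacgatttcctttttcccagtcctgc
NODAL: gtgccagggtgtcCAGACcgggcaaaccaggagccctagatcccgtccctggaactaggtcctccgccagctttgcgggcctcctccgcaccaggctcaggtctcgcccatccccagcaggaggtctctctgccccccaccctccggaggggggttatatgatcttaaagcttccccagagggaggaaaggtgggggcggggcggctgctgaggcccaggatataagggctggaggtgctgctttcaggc
MIXL1: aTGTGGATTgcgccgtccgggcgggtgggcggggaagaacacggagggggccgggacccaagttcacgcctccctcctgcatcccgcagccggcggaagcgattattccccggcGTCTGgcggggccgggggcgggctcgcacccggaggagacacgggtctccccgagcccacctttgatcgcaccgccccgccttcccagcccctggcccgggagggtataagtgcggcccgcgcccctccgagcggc
GSC: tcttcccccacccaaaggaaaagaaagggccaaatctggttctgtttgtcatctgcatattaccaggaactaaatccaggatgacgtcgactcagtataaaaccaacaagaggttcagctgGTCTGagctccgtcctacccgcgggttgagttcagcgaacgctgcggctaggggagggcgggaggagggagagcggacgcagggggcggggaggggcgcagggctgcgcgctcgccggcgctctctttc

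The FOXH1 type motif occurred 2 times in the CER1 window, 1 time in that of MIXL1 and 0 times in those of NODAL and GSC, against at least 1 match in 9.88% of 35116 promoters. The SMAD type motif occurred 1 time in each of the 4, against 38% of all promoters. A match describes letters in these windows and is not a measured binding site.

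Sorted libraries held 4.57 to 7.59 M counts each. Correlations of log2 counts per M (CPM) across 11470 genes with at least 5 CPM were 0.964 to 0.976 within a group (4 pairs), 0.952 to 0.977 between compound groups (12 pairs) and 0.878 to 0.895 between compound and Activin A libraries (12 pairs). These correlations are across genes of one table, which are not independent replicates. The transcript MTRNR2L12 took 6.18 to 6.86% of the counts, with 6.2 and 6.61% in the Activin A libraries.

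Compared with Activin A endoderm, endoderm made with the compounds had lost most of the RNA of the secreted Nodal inhibitors CER1, LEFTY1 and LEFTY2 and of the collagen gene COL5A2, while SOX17, a defining transcription factor of endoderm, fell only from 428 ± 13.3 CPM (SD, n = 2) to 258 ± 16.5 CPM (SD, n = 6 over 3 arms). FOXA1, FOXA2, GATA3 and SOX2 were higher with the compounds. Of 13889 genes tested with edgeR's quasi-likelihood test over all 8 libraries, 3665 passed a Benjamini-Hochberg adjusted p of 0.05 in the pooled comparison of the 6 compound libraries with the 2 Activin A libraries (26.4% of genes). Of these, 1640 were higher with the compounds (11.8%) and 2025 lower (14.6%), and 1550 differed at least 2-fold, 872 upward and 678 downward. The count fell to 1936 without Activin A replicate 1 and to 2144 without Activin A replicate 2. On plain library totals the split was 2463 higher and 1469 lower, since the median log2 change of all genes moved from 0.01 to 0.15. Changes below are relative to TMM scaling. In bulk RNA, fewer cells of a type and less RNA per cell cannot be told apart.

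The genes that define the experiment are those in which all 6 compound libraries lay on one side of both Activin A libraries, and other members of the gene lists are described beside them. There were 2579 such genes with the compounds above (18.6%) and 2908 with the compounds below (20.9%), 5487 in all, and 8402 genes overlapped. On library totals the numbers were 3634 above and 2008 below. Of the 2579, 1608 passed the test, and of the 2908, 1966 passed, as did 91 of the overlapping genes, while 26.4% of all genes passed. The rule and the test use the same 8 libraries, so a high share of passing genes was largely fixed in advance. For the same reason the adjusted p-values of genes picked by the rule give no separate support. At the edge of the rule, ADIPOR1 (log2 change -0.44) lay just inside, with its lowest Activin A library at 70.1 CPM and its highest compound library at 69.9 CPM. ERAP1 (-1.04) lay just outside, with 14.8 CPM in an Activin A library and 14.8 CPM in a BRD library.

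Of the 5 marker genes given for these cells, 3 fell and 2 rose. CER1, which binds Nodal and BMP ligands (chromosome 9, 14719724 to 14722717, minus strand, protein-coding, GENCODE 29 on GRCh38), was at 4759 and 4121 CPM with Activin A. It was at 55.4 and 97.2 CPM with BRD, 130 and 82.1 CPM with JNJ, and 61.7 and 86.7 CPM with BRD and LoAA. The lowest Activin A library therefore stood far above the highest compound library, and the log2 change was -5.72 ± 0.19 (SE; adjusted p = 8.5e-10, edgeR). LEFTY2, an inhibitor that blocks Nodal and its coreceptor (chromosome 1, 225936598 to 225941489, minus strand), was at 507 and 334 CPM with Activin A. With the compounds it was at 0.173 and 0.393 CPM (BRD), 0.956 and 1.25 CPM (JNJ), and 0.164 and 0 CPM (BRD and LoAA), a log2 change of -10.26 ± 0.23 that rests on 19 counts in all 6 compound libraries. Its neighbour and close paralog LEFTY1 was at 202 and 155 CPM with Activin A and at 0.491 to 5.16 CPM with the compounds (log2 change -6.00). Reads shared by LEFTY1 and LEFTY2 may have been split between them, but both fell.

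COL5A2, which encodes a chain of the fibrillar type V collagen (chromosome 2, 189031896 to 189225312, minus strand), was at 992 and 1017 CPM with Activin A and at 15.8 to 28.8 CPM in the 6 compound libraries. Its log2 change was -5.53 ± 0.13 (SE; adjusted p = 2.12e-11, edgeR). Its partner chain COL5A1 was at 109 ± 15.4 CPM with Activin A (SD, n = 2) and 126 ± 8.76 CPM with the compounds (SD, n = 6 over 3 arms) and did not pass the test. The remaining markers were higher with the compounds. GATA3, a zinc finger transcription factor known from trophoblast, amnion and T cells (chromosome 10, 8045378 to 8075203, plus strand), was at 4.39 and 7.97 CPM with Activin A. It was at 157 and 119 CPM with BRD, 125 and 144 CPM with JNJ, and 162 and 144 CPM with BRD and LoAA (log2 change 4.59 ± 0.23). FOXA1, a pioneer factor that opens chromatin for gut and liver genes (chromosome 14, 37589984 to 37596059, minus strand), was at 4.39 and 6.33 CPM with Activin A. With the compounds it was at 46.8 and 49.1 CPM (BRD), 54.9 and 43.8 CPM (JNJ), and 34.6 and 32.8 CPM (BRD and LoAA), and its log2 change was 3.04 ± 0.21.

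**Figure D1:**
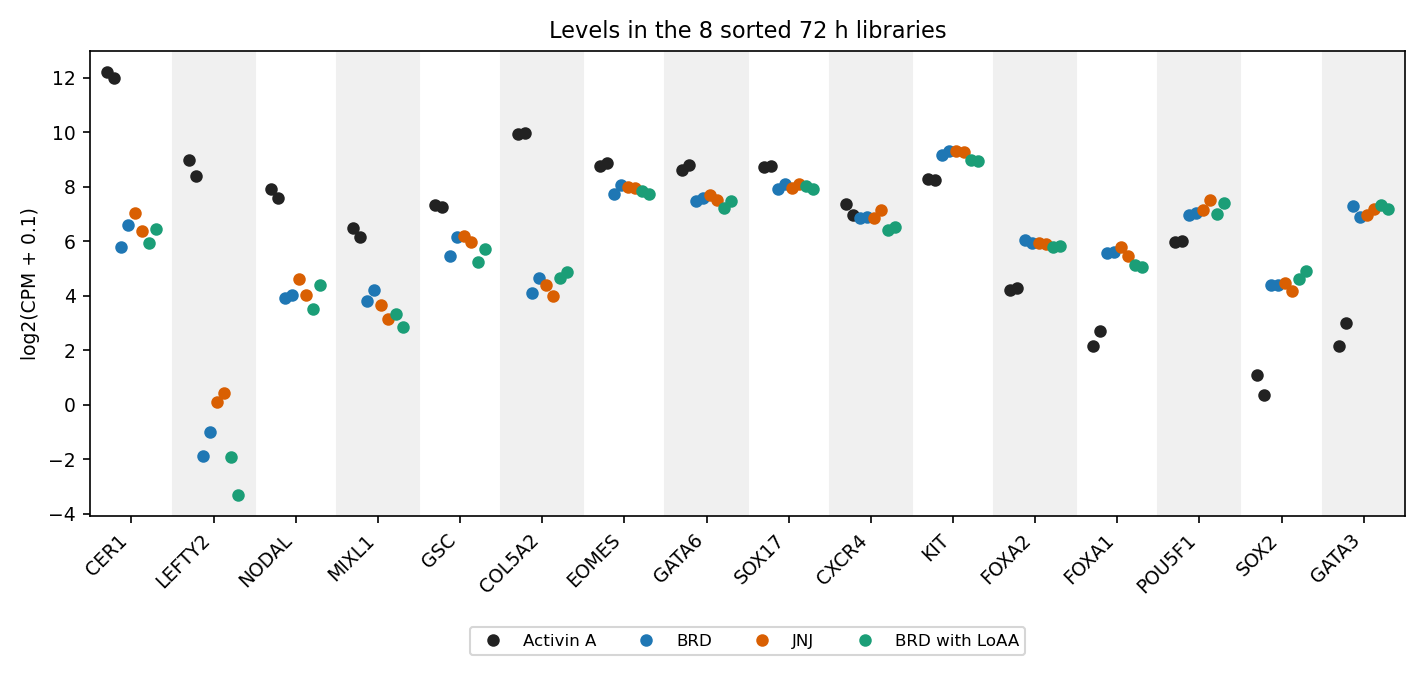
Level of 16 genes in each of the 8 sorted libraries, as log2(CPM + 0.1), with 1 point per library coloured by group. CER1, LEFTY2 and COL5A2 lie far lower in the 6 compound libraries than with Activin A, SOX17 and EOMES lie moderately lower, and FOXA1, SOX2 and GATA3 lie higher.

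RNA of some genes of the pathway itself also changed, a ligand, a receptor, a mediator and inhibitors among them, while other such genes did not pass. Of 20 tested genes of the Nodal and Activin list (25 listed), 9 fell and 3 rose, with a median log2 change of -0.11 against 0.01 over all genes. Of all genes 14.6% fell and 11.8% rose, so the rises are near the background. Without either Activin A library the 9 falls became 9 and the 3 rises became 1. On library totals the median was 0.04, so the sign of this median depends on the scaling. The ligand NODAL was at 241 and 192 CPM with Activin A, and at 15.1 and 16.1 CPM (BRD), 24.5 and 16 CPM (JNJ) and 11.3 and 20.8 CPM (BRD and LoAA), a log2 change of -3.67 ± 0.17. Among receptors, ACVR2A, a type II activin receptor, fell (log2 change -1.4), while ACVR2B (log2 change 0.16) and the type I receptor gene ACVR1B (0.02) did not pass the test.

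Among mediators SMAD3 fell from 52.5 ± 4.27 to 11.8 ± 2.05 CPM (log2 change -2.16), whereas SMAD2 (-0.14), SMAD4 (-0.08) and FOXH1 (0.13) did not pass. The coreceptor gene TDGF1, also called Cripto, was at 1752 ± 67.5 CPM with Activin A and 1772 ± 194 CPM with the compounds. Its relative CFC1, or Cryptic, had 0 counts in both Activin A libraries and 7.99 to 14.4 CPM in the compound libraries, at least 34.7-fold higher with a floor of 3 counts over the Activin A group. CFC1 has the near-identical copy CFC1B, so its value is uncertain. The targets PMEPA1 (log2 change -1.78) and FST (-1.27), which encodes the activin-binding protein follistatin, fell. SMAD7, an intracellular inhibitor, rose by 0.52 on the log2 scale, and TGIF1, a corepressor of SMAD2, by 0.34.

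Genes of the definitive endoderm programme went in both directions: 10 of 20 fell and 5 rose. The shares over all genes were 14.6% falling and 11.8% rising. SOX17 was at 419 and 438 CPM with Activin A and at 240.1 to 277 CPM with the compounds, so the groups did not overlap (log2 change -0.73 ± 0.10). GATA6 (389 and 447 CPM against 148 to 206 CPM) and GATA4 (66.6 and 77.8 CPM against 40.7 to 47.3 CPM), zinc finger factors of endoderm and heart, fell by 1.22 and 0.75 on the log2 scale. EOMES, a T-box factor needed to make endoderm, was at 433 and 470.4 CPM with Activin A and at 212 to 269 CPM with the compounds (-0.93). MIXL1, a homeobox factor of the primitive streak, was lower still, at 89 and 71 CPM against 7.19 to 18.2 CPM (-2.81), and GSC, the organizer gene goosecoid, was at 161 and 152 CPM against 37.7 to 72.3 CPM (-1.48). PRDM1 (-1.05), a transcriptional repressor, and LHX1 (-0.41) also fell, LHX1 with overlapping libraries.

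FOXA2, the FOXA factor first expressed in endoderm, was at 18.2 and 19.5 CPM with Activin A and at 55.2 to 65.6 CPM in the compound libraries, with no overlap (log2 change 1.67 ± 0.14). KIT, a receptor tyrosine kinase used to isolate endoderm, rose from 309.7 and 301 CPM to 489 to 631 CPM (0.90). CXCR4, a chemokine receptor used the same way, was at 165 and 124 CPM with Activin A and 86 to 143 CPM with the compounds. These libraries overlapped, and the log2 change of -0.39 (adjusted p = 0.0365, edgeR) became -0.15 (adjusted p = 0.627) without Activin A replicate 1. HHEX, a homeobox gene of anterior endoderm, was at 72.6 and 65.9 CPM against 72.7 to 111 CPM and did not pass (log2 change 0.34, adjusted p = 0.055, edgeR), although it passed on library totals (0.48, adjusted p = 0.0115). OTX2 (-0.23) and FOXA3 (0.41) did not pass either.

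Among later endoderm genes, 6 of 15 of foregut, liver and gut rose and 0 fell. Over all genes 11.8% rose and 14.6% fell. The list's median log2 change was 0.44 against 0.01 over all genes. TBX3, a T-box factor of liver bud and amnion, was at 6.3 and 5.63 CPM with Activin A and at 87.1 to 126 CPM with the compounds (4.10). APOB, the main protein of low density lipoprotein, was at 0.293 and 2.34 CPM against 16.4 to 24.4 CPM (4.14), and HNF4A, a nuclear receptor that drives liver genes, was at 1.76 and 1.88 CPM against 11 to 18.4 CPM (2.92). KRT19, a simple epithelial keratin, rose from 616 and 635 CPM to 911 to 1238 CPM (0.77). KRT8 (0.11) and KRT18 (0.11), keratins of the same epithelia, did not pass.

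Primitive streak genes included the falls of NODAL, MIXL1, GSC and EOMES and a fall of FGF17, a fibroblast growth factor of the streak and later midbrain border. FGF17 was at 1520.1 and 1473 CPM with Activin A, at 151 and 269 CPM with BRD, 220.1 and 206 CPM with JNJ, and 163 and 177 CPM with BRD and LoAA (log2 change -2.93). In all, 7 of 14 streak genes fell and 3 rose, where 14.6% of all genes fell and 11.8% rose. The rises were in SP5, a zinc finger target of Wnt (4.69 and 4.22 CPM against 38.4 to 71.8 CPM, 3.53), in EVX1, a homeobox gene of the posterior streak (4.74), and in TBXT, or brachyury (3.37 and 2.34 CPM against 7.99 to 14.7 CPM, 1.86).

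Pluripotency genes were partly higher: 5 of 15 rose and 1 fell, against 3 and 0 without either Activin A library and 8 and 0 on library totals. SOX2 was at 2.05 and 1.17 CPM with Activin A and at 17.7 to 29.8 CPM with the compounds (log2 change 3.71 ± 0.30). POU5F1, or OCT4, was at 62.7 and 64 CPM against 124 to 182 CPM (1.19), and ZFP42 at 18.9 and 23 CPM against 52.6 to 73 CPM (1.53). NANOG was at 13.9 and 13.6 CPM against 18.7 to 23.6 CPM (0.58, adjusted p = 0.0327, edgeR), and its call was lost without Activin A replicate 1 (adjusted p = 0.157) and without Activin A replicate 2 (0.151). FOXD3 rose (3.21) from a low level. LIN28A, an RNA-binding protein of stem cells, was at 1792 ± 28 CPM and 1845 ± 135 CPM and did not pass. DNMT3B, a DNA methyltransferase, fell by 0.34 on the log2 scale. This 1 fall of 15 is below the 14.6% of all genes that fell, while 11.8% of all genes rose.

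Markers of other cells that the sort could hold moved as follows. Summed over 15 endoderm markers, the level was 7382 to 7853 CPM with Activin A and 2336 to 2935 CPM with the compounds, a sum that CER1 dominates. Summed over 5 pluripotent markers it was 305 to 325 CPM with Activin A and 362 to 459 CPM with the compounds, with 4 of 5 higher and 1 lower. Over 9 amnion or trophoblast markers the sum was 52 to 63.4 CPM with Activin A and 192 to 252 CPM with the compounds. GATA3 dominates the compound sum, at 142 ± 17.1 CPM (SD, n = 6 over 3 arms) against 6.18 ± 2.53 CPM with Activin A (SD, n = 2). Of the 7 that were tested, 4 rose and 2 fell. GATA2 was at 0 in both Activin A libraries and CDX2 at 0 in all compound libraries. Mesoderm markers, 8 in the table, summed to 59.4 to 71.5 CPM with Activin A and 29.3 to 46.2 CPM with the compounds, with MESP1, HAND1 and HAND2 at 0 with Activin A and HAND2 at 0 with the compounds. Neural markers summed to 2.81 to 3.07 CPM and 7.59 to 17.9 CPM, and endothelial or blood markers to 2.81 to 3.07 CPM and 2.23 to 7.39 CPM. The part of such cells in the changes of GATA3, SOX2 and the other listed genes was not tested.

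Of 20 genes listed for amnion and trophoblast, 9 could be tested, of which 6 rose and 2 fell, and their median log2 change was 3.88, or 3.66 with GATA2 at its bound. Besides GATA3 and TBX3 the rises were in IGFBP3, an insulin-like growth factor binding protein (3.07 and 1.17 CPM against 25.3 to 40.5 CPM, log2 change 3.88), ISL1 (4.41), MSX2 (3.34) and GATA2. TFAP2C, an AP-2 factor of trophoblast and germ cells, went the other way, from 15.7 and 13.1 CPM to 1.4 to 3.67 CPM (-2.55), as did GABRP (-1.52). Neural genes SIX3 (2.70) and OTX1 (2.44) rose with SOX2, while ZIC2 fell from 357 and 339 CPM to 126 to 206 CPM (-1.02), 3 of 9 rising and 1 falling in that list. That 1 fall is near the 14.6% of all genes that fell. In the mesoderm list 1 of 8 rose, near the 11.8% of all genes, FOXC1 (1.30), and 2 fell, KDR, the VEGF receptor of endothelial progenitors (-1.45), and BMP4 (-1.17). Without Activin A replicate 1 or 2 there was 1 fall in it, and without BRD replicate 1 there were 4. In the fit over all 30 libraries FOXC1 (adjusted p = 0.0999) and OTX1 (0.0882) lost their calls, which left 0 rises in the mesoderm list. Of 7 endothelial and blood genes, KDR and SOX18 (-3.92) fell and 0 rose, and SOX18 lost its call without Activin A replicate 1 (adjusted p = 0.118).

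Of 14 tested genes of BMP signalling, which drives mesoderm, amnion and later liver fates, 11 rose and 2 fell, with a median log2 change of 1.64. The falls are near the 14.6% of all genes that fell, while 11.8% of all genes rose. ID1 to ID4 encode inhibitors of basic helix-loop-helix factors and are direct BMP targets. ID1 was at 25.6 and 24.4 CPM with Activin A and at 125 and 135 CPM (BRD), 112 and 147 CPM (JNJ) and 150.2 and 154 CPM (BRD and LoAA), a log2 change of 2.45 ± 0.15. ID4 was at 18 and 14.8 CPM against 113 to 155 CPM (3.06), ID3 at 12.7 and 23.4 CPM against 50.9 to 71.7 CPM (1.76), and ID2 rose by 1.22 on the log2 scale. SMAD9, a BMP mediator, was at 2.2 and 0 CPM with Activin A and at 26.5 to 40.8 CPM with the compounds (4.56). Inhibitors of BMP signalling were also among the 11 rises, namely CHRD (3.69), GREM1 (1.69), BAMBI (1.58) and SMAD6 (0.53). The 11 rises therefore do not all act in 1 direction on the pathway. The ligands BMP2 (-0.82) and BMP4 (-1.17) fell, and BMP7 rose (1.25). BMP4 lost its call without Activin A replicate 1 (adjusted p = 0.0504) and without Activin A replicate 2 (0.105).

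Of 19 Wnt targets and inhibitors 8 rose and 3 fell. Of all genes 11.8% rose and 14.6% fell, so the falls are near the background. CCND1, or cyclin D1, was at 59.3 and 68.7 CPM with Activin A and at 203 to 238 CPM with the compounds (log2 change 1.79), and DKK1, a secreted Wnt inhibitor, rose by 3.90. AXIN2, a feedback inhibitor that reports Wnt activity, fell from 95.3 and 91.6 CPM to 38.6 to 45.7 CPM (-1.14). DKK4, a relative of DKK1, fell from 27.4 and 28.8 CPM to 0 to 1.67 CPM (-5.17). In the list of fibroblast growth factor and ERK genes 7 of 20 rose and 6 fell, FGF17 among the falls. The receptors FGFR3 (2.59), FGFR4 (1.55), FGFR2 (0.87) and FGFR1 (0.68) and the ligand FGF2 (1.99) rose. The ERK phosphatases DUSP4 (514 and 517 CPM against 125 to 151 CPM, -1.87) and DUSP5 (-1.50), with SPRY1 (-1.58), SPRED1 (-0.51) and ETV4 (-1.53), fell, while the phosphatase DUSP6 (0.51) and the ERK target FOS (0.81) rose. In the retinoic acid list 4 of 12 rose, led by CRABP2, a retinoic acid carrier (2.15). The 2 falls, also near that background, were in ALDH1A3, which makes retinoic acid (-3.26), and CYP26A1, which degrades it (-1.03). CYP26A1 was at 1845 and 1863 CPM with Activin A and at 791 to 1006 CPM with the compounds.

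Of 27 matrix genes 14 rose and 6 fell, COL5A2 among them, with 4 falls without Activin A replicate 1 and 3 without Activin A replicate 2. VCAN, the proteoglycan versican, was at 45.4 and 59.5 CPM with Activin A and at 661 to 946 CPM with the compounds (log2 change 3.97). FN1, or fibronectin, was at 467 and 493 CPM against 1795 to 2892 CPM (2.33), and COL4A6 and COL4A5, chains of basement membrane collagen, rose by 2.21 and 1.53. COL4A1 (0.08) and COL4A2 (0.01) did not pass. Of 18 genes tied to epithelial and mesenchymal state, 5 rose and 6 fell. Beside this list and the matrix list, 11.8% of all genes rose and 14.6% fell. CDH1, or E-cadherin, rose from 81 and 72.2 CPM to 199.8 to 277 CPM (1.56). VIM, the intermediate filament vimentin, fell from 489 and 500.2 CPM to 56.2 to 79.3 CPM (-2.90), and the repressors ZEB2 (-4.98) and ZEB1 (-3.20) fell from low levels. CDH2, or N-cadherin, did not pass (-0.14), at 1373 ± 48.1 CPM and 1247 ± 138 CPM.

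Cell cycle genes moved in opposite directions by phase. All 24 tested genes of the G2 to M list were lower with the compounds in the test, by -0.50 to -1.38 on the log2 scale with a median of -0.94, and 21 passed without either Activin A library. In all 24 every compound library lay below both Activin A libraries, where 20.9% of all genes did. This rests on the same 8 libraries as the test and gives no separate support. The list was chosen with earlier results of these data known. UBE2C, a ubiquitin-conjugating enzyme of mitotic exit, was at 97.2 and 91.9 CPM with Activin A, and at 30.1 and 35.8 CPM (BRD), 30.8 and 43.5 CPM (JNJ) and 45.5 and 43.4 CPM (BRD and LoAA), a log2 change of -1.32 ± 0.14. AURKA, a spindle kinase, fell by 1.08 and MKI67, the proliferation antigen, by 0.97. Of 20 S phase genes 12 rose and 0 fell, and 9 rose without either Activin A library. MCM4, a subunit of the replicative helicase, was at 176 and 203 CPM with Activin A and at 341 to 486 CPM with the compounds (1.10 ± 0.13), and UNG, a repair glycosylase, was at 29.1 and 31.9 CPM against 62.5 to 84.5 CPM (1.26). RRM2 (-0.13) and TYMS (0.08), which supply nucleotides, did not pass. Over all genes 11.8% rose and 14.6% fell in the test.

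**Figure D2:**
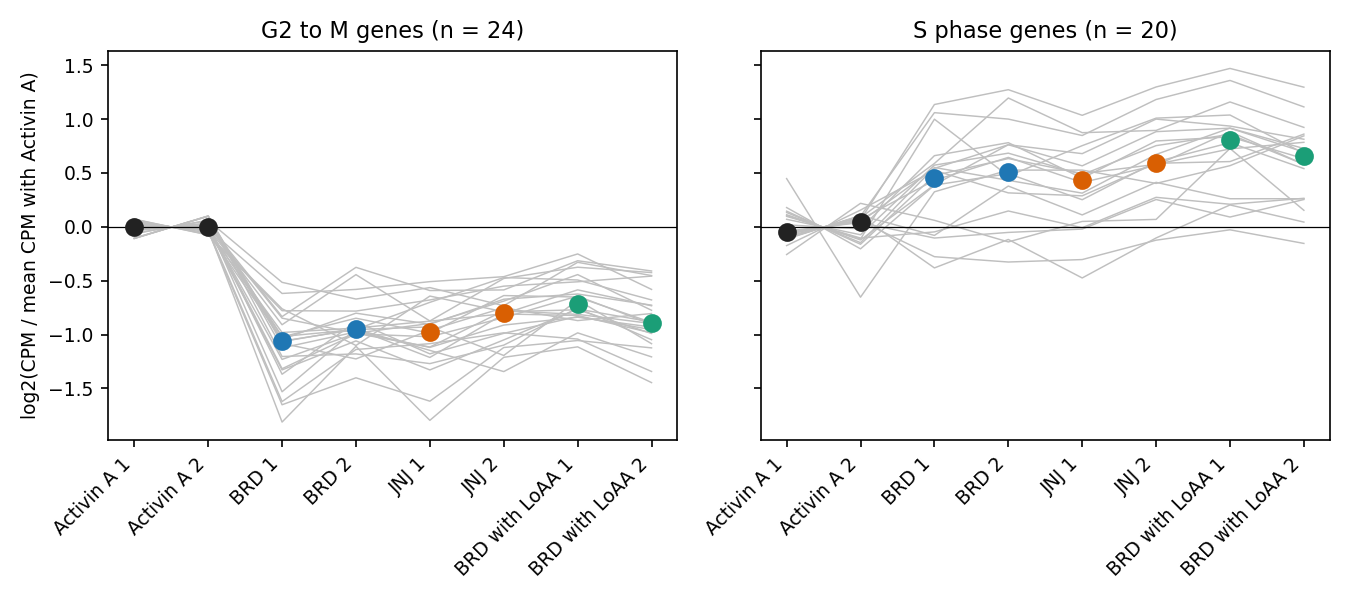
Level of each gene of the G2 to M list (left, 24 genes) and the S phase list (right, 20 genes) in each sorted library, as log2 of its CPM over its mean CPM with Activin A. Grey lines are genes and coloured points are library medians, which lie between -1.07 and -0.72 for G2 to M and between 0.43 and 0.81 for S phase in the compound libraries.

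Genes of cholesterol synthesis and of protein stress were lower. The shares over all genes were 14.6% falling and 11.8% rising. In the cholesterol list 17 of 22 fell and 0 rose, with a median log2 change of -0.64. Without Activin A replicate 1 the falls numbered 9, and without Activin A replicate 2 they numbered 12. On library totals 13 fell and 1 rose. HMGCS1, which makes HMG-CoA early in the pathway, was at 1189.5 and 1110.3 CPM with Activin A and at 258 and 295 CPM (BRD), 272 and 306 CPM (JNJ) and 286 and 259 CPM (BRD and LoAA). Its groups did not overlap, with a log2 change of -2.04 ± 0.10. In the list of the unfolded protein and integrated stress responses 16 of 19 fell and 0 rose (median -0.88). ASNS, asparagine synthetase and a target of ATF4, was at 169.6 and 153 CPM with Activin A and at 36.9 to 59.9 CPM with the compounds (-1.86). HSPA5, the chaperone BiP of the endoplasmic reticulum, fell from 1008 and 896 CPM to 499 to 594 CPM (-0.82), and ATF4 itself from 286 and 265 CPM to 144 to 170.2 CPM (-0.80).

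Glycolysis and hypoxia genes were in part higher, with 12 of 29 rising and 2 falling (median 0.45). The 2 falls are below the 14.6% of all genes that fell, while 11.8% of all genes rose. Without either Activin A library 8 rose and 1 fell, without BRD replicate 2 there were 5 falls, and on library totals 17 rose and 1 fell. ADM, or adrenomedullin, was at 10.2 and 7.97 CPM with Activin A and at 46.1 to 63.9 CPM with the compounds (2.52), and the glucose transporter SLC2A1 at 14.9 and 19.9 CPM against 49 to 89.7 CPM (1.82). The lactate exporter SLC16A3 was at 12.2 and 13.1 CPM with Activin A, 39 and 46.9 CPM with BRD, 33.8 and 35.7 CPM with JNJ, and 22.8 and 22.2 CPM with BRD and LoAA (1.36). PGK1 (0.22), LDHA (0.34) and PDK1 (0.13), other hypoxia targets, did not pass. Of 19 p53 targets 2 rose and 5 fell, where 11.8% of all genes rose and 14.6% fell, so the rises are near the background. Without Activin A replicate 1 the numbers were 1 and 3, and without Activin A replicate 2 they were 0 and 2. CDKN1A (0.23) and MDM2 (0.01), which are among the best known of them, did not pass. In the interferon list 2 of 16 rose, also near that background, and 5 fell, and 3 fell without Activin A replicate 1. HLA-B, a class I antigen-presenting molecule, was at 7.17 and 6.56 CPM with Activin A and at 108 to 137 CPM with the compounds (4.16). HLA-C rose by 1.13, and these genes are similar and overlap in the annotation, so their split is uncertain. IFITM1 (-1.42) and IFITM2 (-1.50), also similar and overlapping, fell. Of 19 HOX genes 0 could be tested, and the 1 metallothionein tested did not pass.

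**Figure D3:**
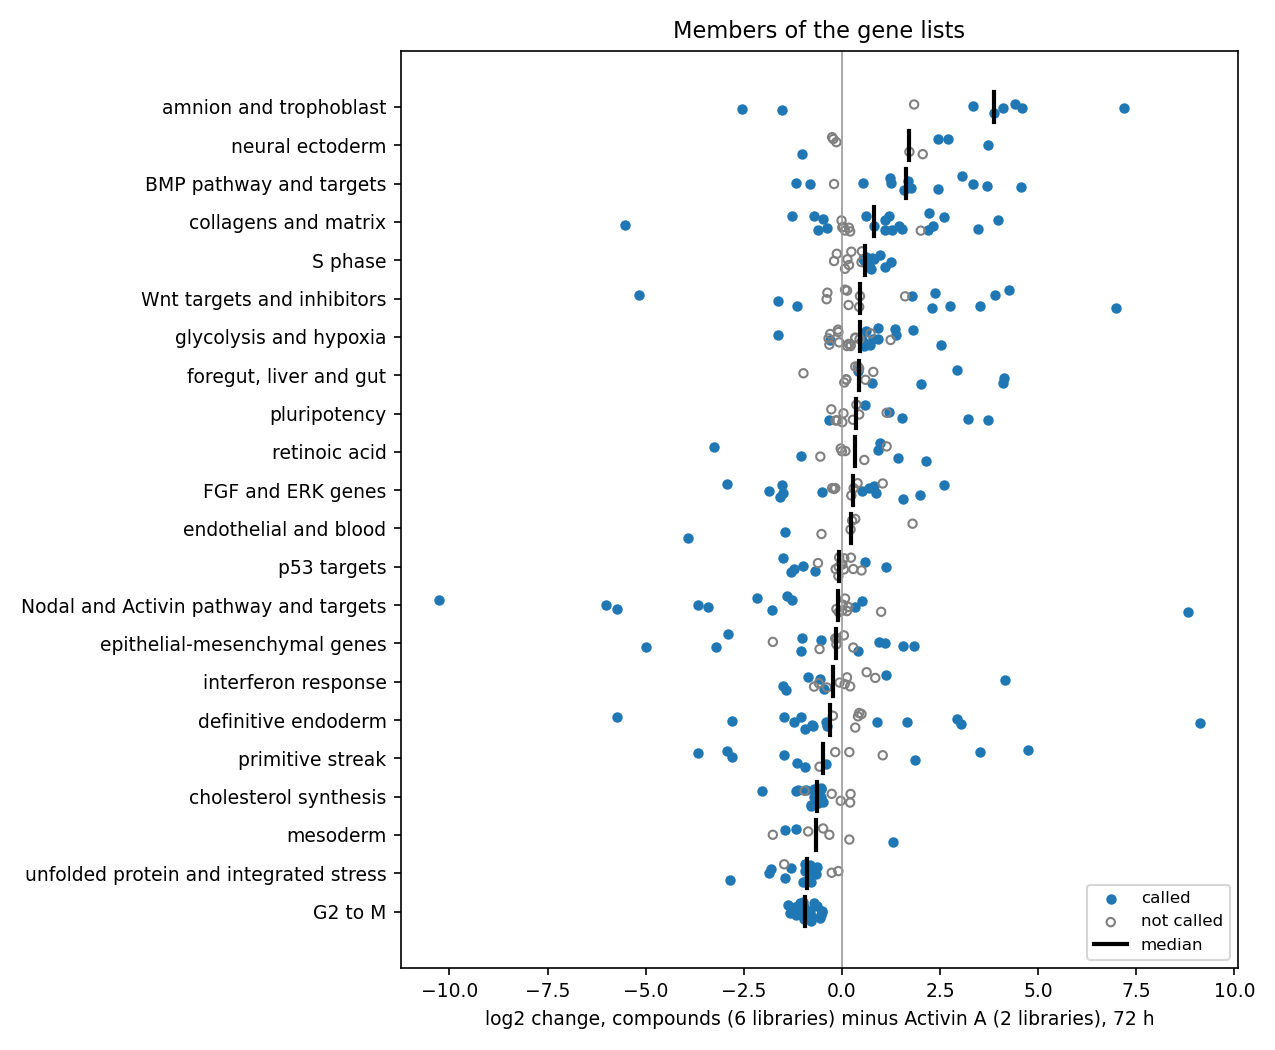
Log2 change of each tested member of 22 gene lists between the 6 compound and the 2 Activin A libraries at 72 h. Filled points passed an adjusted p of 0.05, open points did not, and bars are list medians, from -0.94 for G2 to M to 3.88 for amnion and trophoblast.

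Besides LEFTY2 and LEFTY1, the 12 largest falls among named genes with at least 5 CPM included genes near the detection limit with the compounds. GYPB, a red cell sialoglycoprotein, was at 17.6 and 23 CPM with Activin A and had 0 counts in all 6 compound libraries, at least 242-fold lower when 3 counts are set as their upper limit over the group. It belongs to a family of similar genes, so its identity is uncertain. WT1, a zinc finger factor of kidney and gonad, was at 4.98 and 7.73 CPM against 0 counts, at least 74.3-fold lower, and was not called by DESeq2 (adjusted p = 0.133). ELOVL2, an elongase of polyunsaturated fatty acids, was at 31.6 and 22 CPM with Activin A and had 1 count in the 6 compound libraries, a ratio of 1032 (95% counting interval 184 to 40874).

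CD48, a cell surface protein of the immunoglobulin superfamily, was at 73.5 and 97 CPM against 0 to 1.8 CPM (log2 change -7.03). ITGA4, the integrin alpha 4 chain, was at 52.7 and 68.9 CPM against 0 to 1.96 CPM (-6.22), and NPPB, the natriuretic peptide B precursor, at 62.5 and 32.3 CPM against 0 to 1.2 CPM (-6.55). PDZRN4, with PDZ and RING finger domains, was at 227 and 203 CPM against 2.6 to 5.59 CPM (-5.79), and MAMDC2 at 70.9 and 61.6 CPM against 0.191 to 1.31 CPM (-6.63). APOL3 had 2 counts with the compounds, a ratio of 111 (95% counting interval 29.7 to 939), and VWA3B was at 8.05 and 3.52 CPM against 0 to 0.799 CPM (-6.73), a call that DESeq2 did not make (adjusted p = 0.232).

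The 12 largest rises were all of genes at or near 0 with Activin A. KLHL14, a kelch-like adaptor (chromosome 18, 32672671 to 32773062, minus strand), had 0 counts in both Activin A libraries. It was at 15.6 and 14.9 CPM (BRD), 12.6 and 17.8 CPM (JNJ) and 20.8 and 13 CPM (BRD and LoAA), at least 59.1-fold higher. APELA, a secreted peptide that binds the apelin receptor and guides endoderm cells in embryos (chromosome 4, 164877004 to 164898965, plus strand), had 0 counts with Activin A and 8.59 to 14.8 CPM with the compounds, at least 43.9-fold higher. TTC29 (at least 37.6-fold), SLC17A8, a vesicular glutamate transporter (at least 23.8-fold), and CFAP91 (at least 20.9-fold) also had 0 counts with Activin A. TTC29, CFAP91 and DNAH5 encode proteins of motile cilia or flagella, and DNAH5 had 1 count with Activin A, a ratio of 69.1 (95% counting interval 12.3 to 2742).

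GREB1L, a cofactor in retinoic acid dependent development, was at 0.146 and 0.234 CPM with Activin A and at 9.59 to 23.7 CPM with the compounds, a ratio of counts of 92.4 (25.5 to 765). GAD1, which makes the transmitter GABA, was at 0.293 and 0 CPM against 12.8 to 18.5 CPM (ratio 84.4, 23.3 to 699), VAT1L at 0 and 0.234 CPM against 5.54 to 11.3 CPM (81.1, 14.4 to 3217), and PPP1R1A, an inhibitor of protein phosphatase 1, at 0.146 and 0.234 CPM against 9.5 to 17.4 CPM (70.2, 19.3 to 581). NPIPB3, of a family with many near-identical copies, was at 0.439 and 0 CPM against 4.99 to 43.6 CPM and was not called by limma-voom (adjusted p = 0.189). Counting intervals cover counting error only.

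Each compound arm was also compared alone with the same 2 Activin A libraries, which the 3 comparisons share. BRD gave 2954 calls (21.3%), JNJ 2568 (18.5%) and BRD with LoAA 2693 (19.4%). These fell to 1607, 1420 and 1348 without Activin A replicate 1 and to 1785, 1537 and 1544 without Activin A replicate 2. BRD with LoAA gave 1635 without its own replicate 2. Over the 3348 genes called in the pooled comparison with no overlap and at least 5 CPM, the median size of the log2 change was 0.85 with BRD, 0.80 with JNJ and 0.79 with BRD and LoAA. These genes were selected on the same libraries, so the sizes are a description and say nothing of how alike the arms are. CER1 changed by -5.85 ± 0.30 (SE) with BRD, -5.39 ± 0.30 with JNJ and -5.91 ± 0.31 with BRD and LoAA. FOXA1 changed by 3.20, 3.23 and 2.69, and KIT by 0.98, 1.03 and 0.70.

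BRD and JNJ were compared with each other at the same time, without the Activin A libraries in the contrast. Of 13889 genes, 0 passed edgeR's adjusted p of 0.05 (0%), with 390 at an unadjusted p under 0.05, 0 by limma-voom and 4 by DESeq2. The 4, named after their values were seen, were CDRT4, RGPD2 and the clone-named AL132780.3 and FO681492.1. CDRT4 was at 18.9 and 13.8 CPM with BRD and at 0.382 and 0.279 CPM with JNJ (DESeq2 adjusted p = 2.79e-05, edgeR 0.13), but BRD with LoAA had 4.75 and 23.2 CPM. The interval of the difference lay within 2-fold for 83.4% of 11468 genes with at least 5 CPM, so for the other genes a 2-fold difference lay inside the interval or at its edge. For SOX17 the difference of BRD minus JNJ was -0.02 on the log2 scale (95% interval -0.29 to 0.26), for CER1 -0.46 (-1.03 to 0.11), for GATA3 0.03 (-0.36 to 0.42) and for COL5A2 0.21 (-0.23 to 0.65). For FOXA1 it was -0.04 (-0.43 to 0.36). The nominal interval left out 0 for 8 of 108 named genes, and 0 of the 8 passed adjustment (adjusted p = 1, edgeR). BRD was lower than JNJ for LEFTY2 (-1.85, -3.60 to -0.09), LEFTY1 (-1.28, -2.34 to -0.22) and HHEX (-0.48, -0.79 to -0.18) in these nominal intervals. It was higher for MIXL1 (0.61, 0.05 to 1.17), GREB1L (0.76, 0.13 to 1.38), VCAN (0.36, 0.03 to 0.69), MAMDC2 (1.63, 0.26 to 2.99) and SOX18 (5.08, 0.85 to 9.31). SOX18 was at 0.866 and 0.524 CPM with BRD and at 0 CPM in both JNJ libraries, so its value depends on the fit's prior count. In a joint test of any difference among the 3 compound arms 0 genes passed edgeR (0%), with 535 at an unadjusted p under 0.05, 0 by limma-voom and 10 by DESeq2. In data simulated for BRD against JNJ, 42% of 2-fold and 82% of 4-fold changes were recovered, with 12.7% of the calls false. There 100 of 13889 genes were changed at each size, and the shares depend on that setting.

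A replacement of Activin A was also measured at 24 h in unsorted cells of another library series, where Activin A, BRD or JNJ was given with CHIR. There was no LoAA group at 24 h. The comparison averaged BRD and JNJ, which were not tested against each other at that time. In these libraries, which the choice of genes at 72 h did not use, 396 of 15319 genes were higher with the compounds (2.59%) and 451 lower (2.94%). DESeq2 called 927 higher and 801 lower, so which direction had more calls depends on the tool, and edgeR called 534 genes in all without Activin A and CHIR replicate 1 and 487 without replicate 2. The shares below rest on the edgeR calls. Of the 1422 genes higher at 72 h by the test, with no overlap and at least 5 CPM, 1406 were tested at 24 h, and 130 were also higher there (9.25%) while 45 were lower (3.2%). Of the 1926 genes lower at 72 h, 1910 were tested, and 223 were also lower (11.7%) while 53 were higher (2.77%). Time, sorting and library series differ together and cannot be told apart, and levels were scaled within each time.

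CER1 was already high with Activin A and CHIR at 24 h, at 1173 and 1338 CPM, against 72.1 and 50.2 CPM with BRD and CHIR and 30.4 and 30.2 CPM with JNJ and CHIR. CHIR alone gave 103 and 85.8 CPM. COL5A2 was at 173 and 150.4 CPM with Activin A and CHIR, 25.7 to 34.3 CPM with the compounds and CHIR, and 51.4 and 45.2 CPM with CHIR alone. FGF17, CD48, PDZRN4 and ITGA4 were also lower at 24 h in the test. SOX2 (27.9 to 30.2 CPM against 6.4 and 8.98 CPM with Activin A and CHIR) and FOXA2 (59.9 to 79 CPM against 18.6 and 18.1 CPM) were already higher with the compounds and CHIR, and CHIR alone gave 30.4 and 36 CPM of SOX2 and 81.8 and 58.9 CPM of FOXA2. NODAL, by contrast, was at 176 and 211 CPM with Activin A and CHIR and at 176 to 196 CPM with the compounds and CHIR at 24 h, and did not pass (log2 change -0.06). SOX17 and GATA3 were below 2 CPM in all 24 h libraries compared. Of the 24 G2 to M genes 1 was lower at 24 h, and of the 22 cholesterol genes 2 were. At 24 h 2.59% of all genes were higher and 2.94% lower, so the 1 G2 to M fall is near the background. The BMP list went the other way than at 72 h, with 0 of 15 higher, 5 lower and a median log2 change of -1.21. Of 29 matrix genes 4 were higher and 9 lower, and of 19 protein stress genes 0 were higher and 8 lower.

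**Figure D4:**
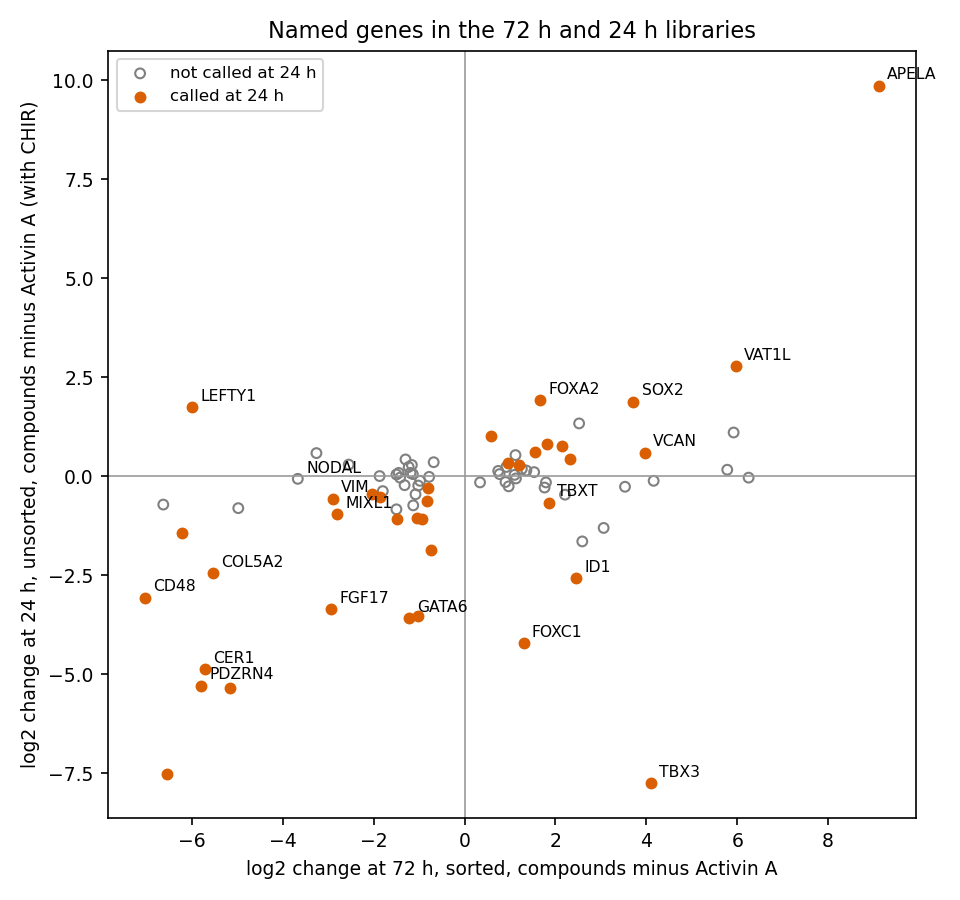
Log2 change between compounds and Activin A at 72 h (sorted, x axis) and at 24 h (unsorted, with CHIR, y axis) for 83 named genes with at least 5 CPM in a 24 h group. Orange points passed the test at 24 h; 37 genes passed at both times, 32 in the same and 5 in opposite directions, and values of genes with 0 counts in a group, such as APELA, depend on the fit's prior count.

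The single-cell library of endoderm made with Activin A at 72 h measured the Activin A side by another chemistry, with no sort named in its labels, in 6321 cells and 35.4 M unique molecules (UMIs) summed over cells. It is 1 library, so no test was made. CER1 was at 2955 CPM there (95% counting interval 2937 to 2973), LEFTY1 at 888 CPM, LEFTY2 at 700.0 CPM and COL5A2 at 166 CPM, while a mesoderm library of 6266 cells had 0.0873, 0, 0.196 and 6.68 CPM. GYPB was at 171 CPM and CD48 at 155 CPM. KLHL14 and APOB had 0 UMIs, which allows up to 0.0848 CPM at a floor of 3 UMIs (0.104 CPM as the upper 95% counting limit), and TTC29 had 2, SLC17A8 1 and CFC1 4 UMIs. APELA, at 0 counts in the bulk Activin A libraries, had 65 UMIs (1.84 CPM), and GAD1 had 212 (5.99 CPM). GATA3 was at 2.43 CPM and FOXA1 at 0.989 CPM. Other genes did not match the bulk levels. Of 52 named genes higher with the compounds in bulk, 4 were above their bulk compound mean in this Activin A library, namely POU5F1 (305 CPM), ID3 (211 CPM), SLC16A3 (50.4 CPM) and SIX3 (27.4 CPM). Of 54 named genes lower with the compounds, 20 were below their bulk compound mean, among them SOX17 (122 CPM), GATA6 (155 CPM) and HMGCS1 (106 CPM). Levels from the 2 chemistries are not on a common scale. Single-cell libraries of cells made with a compound were not analysed here.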

How the data were processed

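Total RNA of the bulk samples was made into stranded libraries and read from 1 end, per the labels' protocols. For 16103 genes the authors deposited expected counts, which need not be whole. The submitters' processing notes list Salmon 1.4.0, limma 3.48.1, edgeR 3.34.0 and GRCh38 without roles. Single-cell matrices hold UMI counts made by the authors with Cell Ranger 3.0.2, per the file headers, and were summed over all barcodes with no filter and no removal of doublets.

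Expected counts were rounded to whole numbers and tested by edgeR 4.0.16 under R 4.3.3 (low counts removed by filterByExpr, TMM scaling, two-sided quasi-likelihood F-test, Benjamini-Hochberg adjustment over all genes tested). The 8 libraries of 72 h entered 1 fit of 4 groups with 4 residual degrees of freedom, and the 24 h libraries, at 13 to 29.6 M counts, another. Differences between the times were tested in 1 fit over both. Levels are CPM with TMM scaling, and standard errors come from the F statistic. Every group has 2 libraries.

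Named are the 12 largest rises and 12 largest falls (called, at least 5 CPM in the higher side, no overlap, no clone identifier), 5 given markers, 14 stage genes and up to 4 genes of smallest p from each of 24 gene lists. Other list members are quoted to show a list's range. Members and lists were chosen with earlier results of these data known. Lists are described by counts and medians, with no set test. On simulated data 58% of 2-fold and 86% of 4-fold changes were recovered in the pooled comparison, with 7.1% false calls, above the nominal rate. Only 100 of 13889 genes were changed at each of these sizes, while 26.4% of genes passed in the data. These shares therefore need not hold for the pooled comparison of the data. Alternatives were DESeq2 1.42.0, limma-voom (limma 3.58.1), no filter, other scaling, a replicate block, other sets of groups and each library left out. A deposited aggregate of the single-cell matrices was not used. Results for some genes are not reported here.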

Additional observations from a re-analysis of the deposited data

Results flagged for a closer look

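For 5 named genes the change between compounds and Activin A went one way in sorted cells at 72 h and the other way in unsorted cells at 24 h, and the difference itself passed the test in 1 edgeR fit over both times (Benjamini-Hochberg adjusted over all genes). The 5 are the named genes that passed at both times in opposite directions. That choice used the same libraries, so a passing difference was largely fixed in advance and the values are a description. Time, sorting and library series cannot be told apart in these differences, and no cause was tested.

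LEFTY1 was 6.79 and 9.29 CPM with Activin A and CHIR at 24 h, below the 22.6 to 36.1 CPM with the compounds and CHIR, and 202 and 155 CPM with Activin A at 72 h, above 0.491 to 5.16 CPM. The difference of the log2 changes (72 h minus 24 h) was -7.75 (adjusted p = 1.21e-09). ID1, the BMP target, was at 43.4 and 62.7 CPM with Activin A and CHIR at 24 h against 7.06 to 11.1 CPM with the compounds and CHIR, while at 72 h the compounds were higher, a difference of 5.03 (adjusted p = 1.01e-06). TBXT was at 233 and 191 CPM at 24 h with Activin A and CHIR against 105 to 165 CPM, and the difference was 2.52 (adjusted p = 1.28e-05, edgeR). CHIR alone at 24 h gave 30 and 30 CPM of LEFTY1, 4.82 and 19.4 CPM of ID1 and 109 and 105 CPM of TBXT. The 24 h differences therefore cannot be credited to the compounds rather than to leaving Activin A out.

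TBX3 was at 19.8 and 19.4 CPM with Activin A and CHIR at 24 h, 0 CPM in both BRD libraries and 1.61 and 1.76 CPM with JNJ. Its fitted difference of 11.52 depends on the prior count because of these zeros. FOXC1 was at 26.8 and 14.6 CPM with Activin A and CHIR at 24 h and at 0 to 3.05 CPM with the compounds and CHIR. Its difference was 5.64 (adjusted p = 0.000478, edgeR). CHIR alone at 24 h gave 1.03 and 0 CPM of TBX3 and 1.33 and 6.31 CPM of FOXC1.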

How the results depend on the processing

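Of 108 named genes, 0 changed direction under any of 17 settings, 11 lost their call under at least 1 and HHEX gained one. Calls between BRD and JNJ, 0 as reported, became 4 with DESeq2, 4 without a filter on low counts and 0 to 3 when a library was left out. Calls of any difference among the compound arms became 10, 3 and 0 to 3. Calls at 24 h, 847 as reported, became 1728 with DESeq2 and 487 to 956 when a library was left out. Leaving out a library gave 1936 to 3754 calls in the pooled comparison, 1607 to 2913 for BRD, 1420 to 2665 for JNJ and 1348 to 2839 for BRD with LoAA. Fewer libraries leave a lone sample in an arm, which is assumed to vary like the other groups. Library totals without TMM, added after the data were seen, gave 3932 pooled calls, of which 62.6% were higher against 44.7% as reported, and the genes without overlap became 5642, of which 64.4% lay above against 47%.

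Replicates share only a number. Deviations of same-numbered libraries correlated at -0.23 to 0.25 between groups, so they were not treated as pairs. With the replicate block, 3423 genes were called in the pooled comparison, 2654 for BRD, 2319 for JNJ, 2443 for BRD with LoAA, 872 at 24 h, and 0 between BRD and JNJ and among the arms, and CXCR4 lost its call (adjusted p = 0.0554). Depth of 4.57 to 7.59 M counts limits genes near 0 to bounds.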
